A study of Arabidopsis thaliana with 6 samples.

Results

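Transcript levels were compared between Arabidopsis rosette leaves harvested 1 h after a paraquat spray and leaves harvested 1 h after a mock spray, with 1 Affymetrix ATH1 array a side. Probe sets entered when they were not array controls and had a signal above 86 on at least 1 of both arrays, and the ratio of each was taken on the scale log2(signal + 34), paraquat minus mock. Of 22746 probe sets, 14219 lay above that floor and 111 of these differed at least 2-fold, 65 higher with paraquat (0.457% of those above the floor) and 46 lower (0.324%). With 1 array a side there is no test at 1 h, so every 1 h ratio below is a difference between 2 arrays and not a tested effect of paraquat. The added constant makes these ratios understate the change of dim probe sets.

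Paraquat, or methyl viologen, is a herbicide that accepts electrons from photosystem I in the light and hands them to oxygen, so that superoxide forms in the chloroplast and is turned into hydrogen peroxide. Chloroplasts remove both with superoxide dismutases and the ascorbate and glutathione cycle, in which monodehydroascorbate reductases and glutathione reductases restore the reduced forms. Diverting electrons from photosystem I also takes reducing power away from carbon fixation. Plastids carry a small genome of their own, which encodes part of both photosystems, of the ATP synthase, of the NDH complex, of the ribosomes and of an RNA polymerase.

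All plants carried the flu1-1 allele in the Landsberg erecta (Ler) ecotype, a mutant that lacks a brake on chlorophyll precursor synthesis, so no wild type stands behind these values. The paraquat plants were sprayed with paraquat in 0.1% Tween, at a dose given as 20 mM in the titles and in micromolar units in the treatment protocol, which were not reconciled here. The mock plants received the detergent alone, and both were 3 weeks old, on soil, in continuous light and not yet bolting. A sample held leaves of 5 to 6 plants, and RNA of 2 experiments was pooled before labelling, so that the spread between experiments is hidden within each array. Pairs of arrays at 2 h and 4 h, from the same design, were used to follow each gene. Fewer cells of a type and less RNA per cell cannot be told apart in such bulk leaf RNA.

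The 1 h pair was close throughout. The correlation of log2 values across probe sets was 0.986, the SD of the 1 h ratios was 0.29 and their median was -0.01. The same rule gave 64 higher and 41 lower probe sets for the 2 h pair. Mock leaves alone, taken at 2 h and set against 1 h, gave 159 higher (1.11%) and 296 lower (2.07%). Median signals lay between 157.7 and 162.0 on the 6 arrays. Some control probe sets stood apart on the paraquat 1 h array. The 25S ribosomal RNA set had a signal of 307.7 there, against 124 in mock leaves at 1 h and 92.8 to 243 on the other 4 arrays. The set for the 5′ part of actin had 1329, against 527 in mock leaves at 1 h and 551 to 584 on the others, and the 3′ to 5′ ratio of that actin control was 3.00, against 6.66 to 9.16. A second actin control had a 3′ to 5′ ratio of 1.62, against 1.39 to 1.56. Of 36 control probe sets above the floor, these 25S and actin sets were the 2 that lay at least 2-fold higher. The 5S ribosomal RNA set stood apart on the mock 1 h array instead, with a signal of 127. It had 58.9 with paraquat at 1 h and 52.8 to 64.5 on the other 4 arrays. The part of either 1 h array in the results below was not tested beyond the values given beside them.

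The later arrays, which had no role in choosing the probe sets, were read for the higher and the lower ones apart, and the difference between both directions was not tested. Of the 65 higher probe sets, 59 had a ratio above 0 again at 2 h (90.8%, against 50.1% of all 14219) and 44 at 4 h (67.7%, against 47.3%), and 41 did so at both hours (26.7% of all). Their median log2 ratio was 1.16, 0.59 and 0.25 at 1, 2 and 4 h. At least 2-fold higher ratios recurred for 12 of them at 2 h, where 0.45% of all probe sets above the floor passed, and for 6 at 4 h, where 1.24% did. Of the 46 lower probe sets, 26 were below 0 again at 2 h (56.5%, against 49.9%) and 21 at 4 h (45.7%, against 52.7%), and 13 at both hours (29.3% of all). Their median was -1.19, -0.05 and 0.03 at 1, 2 and 4 h. At least 2-fold lower ratios recurred for 5 at 2 h and 3 at 4 h, where 0.288% and 0.524% of all probe sets passed.

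**Figure D1:**
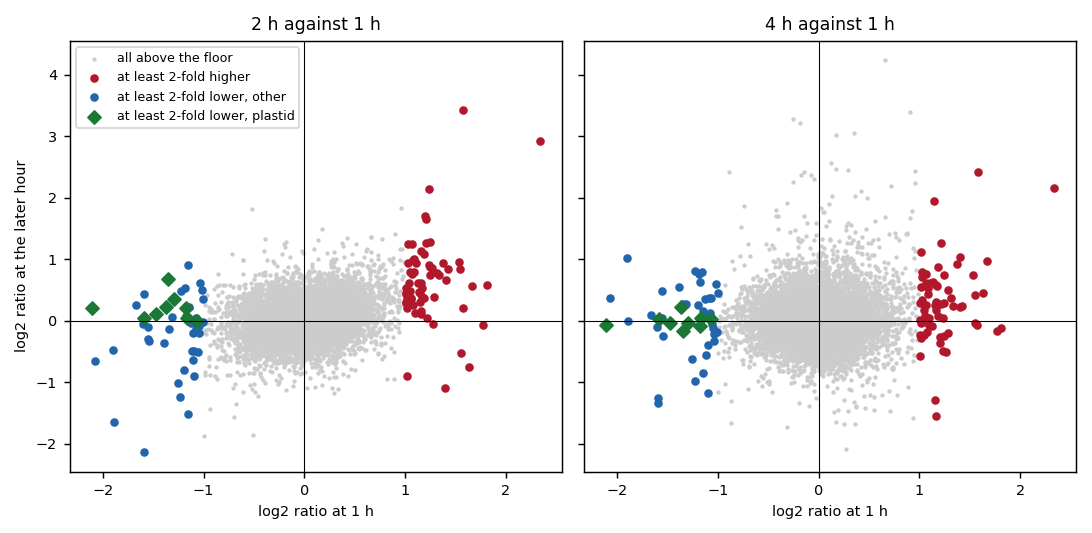
Each point is a probe set above the floor at 1 h, with its log2 ratio of paraquat over mock at 1 h on the x axis and at 2 h (left) or 4 h (right) on the y axis. Grey points are all 14219, red points the 65 at least 2-fold higher, blue points 37 of the 46 lower and green diamonds the 9 plastid-encoded lower ones, which lie near 0 on the y axis at 4 h.

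Of the named genes at least 2-fold different at 1 h, AT3G20340 had the largest mean ratio over the later hours. Its signal with paraquat was 354, 1001 and 679 at 1, 2 and 4 h, against 95.9, 62.6 and 99.1 in mock leaves. All 3 paraquat arrays lay above all 3 mock arrays, and the log2 ratio was 1.58, 3.42 and 2.42 at 1, 2 and 4 h. Here and below, such a separation includes the 1 h pair that chose the gene, so it is description only. Of all probe sets above the floor, 3.32% had paraquat above mock in this way and 4.12% below. The limma fit used the 4 arrays of 2 h and 4 h alone, with the hour as a block. In that fit AT3G20340 rose by 2.92 ± 0.24 log2 units (moderated SE, adjusted p = 0.020). This call and all other limma calls over the later hours were lost without the variance trend (smallest adjusted p over all probe sets 0.21), without the filter on low signals (0.49) and without the hour block (0.79). The unnamed probe set 251109_at was the highest of all at 1 h. Its signal was 4588, 9590 and 13872 in paraquat leaves and 882, 1242 and 3080 in mock leaves at 1, 2 and 4 h, and its log2 ratio of 2.34 at 1 h was followed by a limma mean of 2.54 ± 0.17 over 2 h and 4 h (adjusted p = 0.0095). These 2 were the only 1 h probe sets that limma called over the later hours, among 59 higher and 28 lower ones tested there. Over all 13898 probe sets tested, limma called 5 higher (0.036%) and 2 lower (0.0144%), and all 7 had the same sign at 1 h. An unadjusted p under 0.05 with the sign of 1 h was found for 28 of the 59 higher probe sets, where 5.33% of all tested were higher at that p, and for 4 of the 28 lower ones, where 4.42% were lower.

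Several genes that leaves are known to express when sugar runs short lay higher with paraquat. AT3G15450, of a family named for aluminium-induced proteins with YGL and LRDR motifs, had signals of 1602, 716 and 537 with paraquat at 1, 2 and 4 h, against 531, 352 and 308 in mock leaves. Its log2 ratio was 1.53, 0.96 and 0.74, with every paraquat array above every mock array. AT4G27450, of the same family, had 397, 379.7 and 394 with paraquat, against 177, 181 and 229 in mock leaves, and ratios of 1.03, 0.94 and 0.71. AT5G19120, an aspartyl protease family gene, had 1166, 802 and 411 with paraquat, against 495, 362 and 208 in mock leaves. Its ratio was 1.18, 1.08 and 0.88, but its paraquat signal at 4 h lay below its mock signal at 1 h, as the level was lower at each later hour under both sprays.

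The other listed sugar-starvation genes were higher by less. The list holds 31 genes, of which 9 had a probe set of their own above the floor, and all 9 had a ratio above 0 at 1 h (48.9% of all probe sets above the floor did), 3 of them at least 2-fold. The median was 0.62, 0.31 and 0.21 at 1, 2 and 4 h, against -0.01, 0.00 and -0.02 over all probe sets above the floor. AT1G18460 stood at 0.67 at 1 h, AKINBETA1, a regulatory subunit of the energy-sensing SnRK1 kinase, at 0.62, and PPDK, a pyruvate orthophosphate dikinase, at 0.52. The subunits of methylcrotonyl-CoA carboxylase, which breaks down leucine, stood at 0.42 for MCCA and 0.28 for MCCB, and the transcription factor gene BZIP53 at 0.20. PPDK turned to -0.72 at 4 h, where its signal was 2396 with paraquat and 3972 in mock leaves. None of the 9 passed limma over 2 h and 4 h, the smallest adjusted p being 0.077 for AT5G19120. Parts of this list were written with some of these ratios in view, so its direction is not independent evidence.

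**Figure D2:**
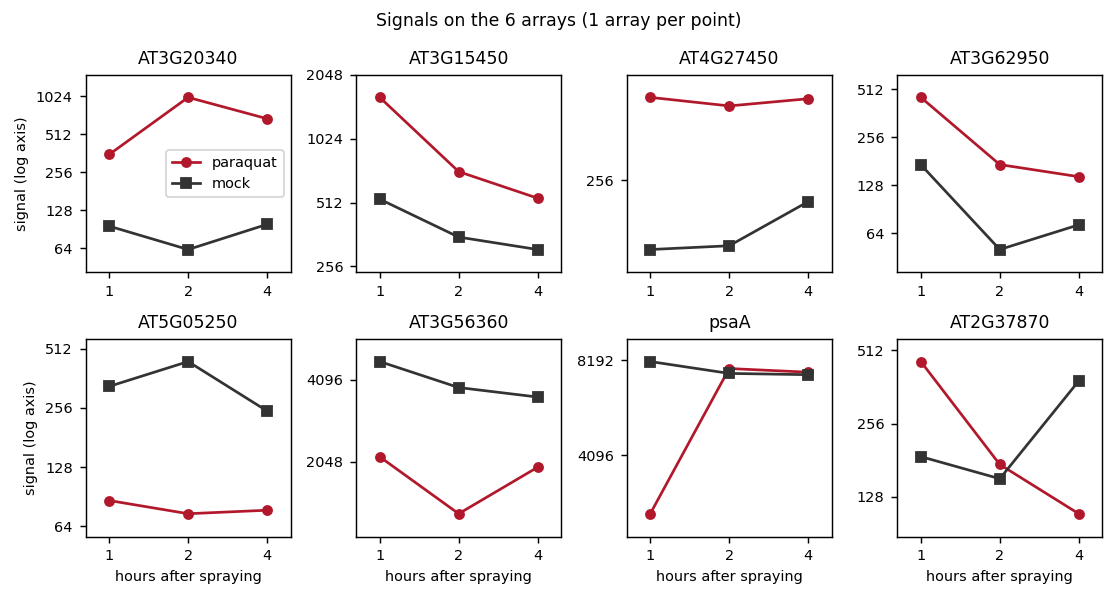
Signals on the 6 arrays for 8 genes, with the hour after spraying on the x axis and the signal on a log axis, paraquat in red circles and mock in dark squares, 1 array per point. AT3G20340, AT3G15450 and AT4G27450 stay higher with paraquat at all 3 hours, AT5G05250 and AT3G56360 stay lower, psaA is low only on the paraquat 1 h array and AT2G37870 crosses over.

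Glutaredoxins of the plant-specific CC class, small thiol oxidoreductases that bind TGA transcription factors, supplied 2 of the higher genes. AT3G62950 had signals of 454, 172 and 145 with paraquat, against 172, 50.5 and 72.1 in mock leaves at 1, 2 and 4 h. Paraquat exceeded mock at each hour, with ratios of 1.25, 1.29 and 0.75, although the level under both sprays was highest at 1 h. AT4G15690 had 434, 497 and 315 with paraquat, against 154, 277 and 236 in mock leaves, all 3 paraquat values above the 3 mock values, with ratios of 1.31, 0.77 and 0.37. Its listed relatives from the same gene cluster were also higher at 1 h, AT4G15680 at 0.86, AT4G15660 at 0.67 and AT4G15700 at 0.66, and each was above 0 at 2 h and 4 h. These genes are closely related copies, so that a probe set may read more than 1 of them. Of 14 genes of the class above the floor, 12 had a ratio above 0 at 1 h, where 48.9% of all probe sets did. The median of the 14 was 0.15. GRX480, a member known from salicylic acid responses, went the other way with -0.61, on signals of 1396 with paraquat and 2146 in mock leaves. This list was added after the first 2 genes had been seen.

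Most genes known to respond to superoxide and hydrogen peroxide had ratios above 0. Of 10 members above the floor, 10, 9 and 8 did so at 1, 2 and 4 h, where 48.9%, 50.1% and 47.3% of all probe sets did. At 1 h 3 were at least 2-fold higher, and the median was 0.93, 0.73 and 1.61 at 1, 2 and 4 h. AT3G49160, a pyruvate kinase family gene, had 195, 273 and 479 with paraquat, against 64.9, 64.0 and 181 in mock leaves, and ratios of 1.21, 1.65 and 1.26. Its paraquat signals all exceeded its mock signals. AT1G26380, a berberine bridge enzyme-like oxidase gene, stood at 1.15, 0.30 and 1.95, with a mock signal of 618 at 2 h that exceeded the paraquat signals of 428 and 439 at 1 h and 4 h. AT4G01870 fell just short of 2-fold at 1 h with 0.96, on signals of 1671 with paraquat and 844 in mock leaves, and rose by 2.13 ± 0.15 over 2 h and 4 h (limma adjusted p = 0.0095). AT2G41730 stood at 0.95 and AT1G76600 at 0.90. AT1G05340 stood at 0.46, -0.06 and -1.42 at 1, 2 and 4 h, and AT2G18690 at 0.18, 0.02 and -0.22, so both were below 0 at 4 h. Members of this list were seen in earlier results of these arrays, and its direction is no independent evidence either.

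Enzymes that scavenge or recycle antioxidants showed small ratios at 1 h. Among 6 genes above the floor, none reached 2-fold and the median was 0.18. ATMDAR2, a monodehydroascorbate reductase, was the highest with 0.59, on signals of 1849 with paraquat and 1216 in mock leaves, and it rose by 1.18 ± 0.11 over 2 h and 4 h (limma adjusted p = 0.035). The glutathione reductase genes GR and GR1 stood at 0.39 and 0.29, and the chloroplast ascorbate peroxidase genes SAPX and TAPX at 0.07 and -0.28. Of 11 detoxification genes with a probe set, 4 lay above the floor. AT2G04050, a MATE transporter gene, had signals of 111 with paraquat and 30.8 in mock leaves (ratio 1.16, then 0.12 and 0.30). Its relative AT2G04070 stood at 0.62. The median of these 4 was 0.79, with AER, an alkenal reductase, at -0.12. Members below the floor on both 1 h arrays were left out of this median. Their ratios ran from -0.66 for GSTU25 to 0.80 for UGT73C1. Among 24 glycosyltransferase genes of the UGT family above the floor, UGT85A7 alone reached 2-fold, and the family median was 0.04. UGT85A7 had 90.8, 102 and 76.6 with paraquat, against 20.2, 22.4 and 107 in mock leaves. For UGT85A7 and AT2G04050 only the paraquat array lay above the floor at 1 h, so both ratios rest on a mock signal below it.

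**Figure D3:**
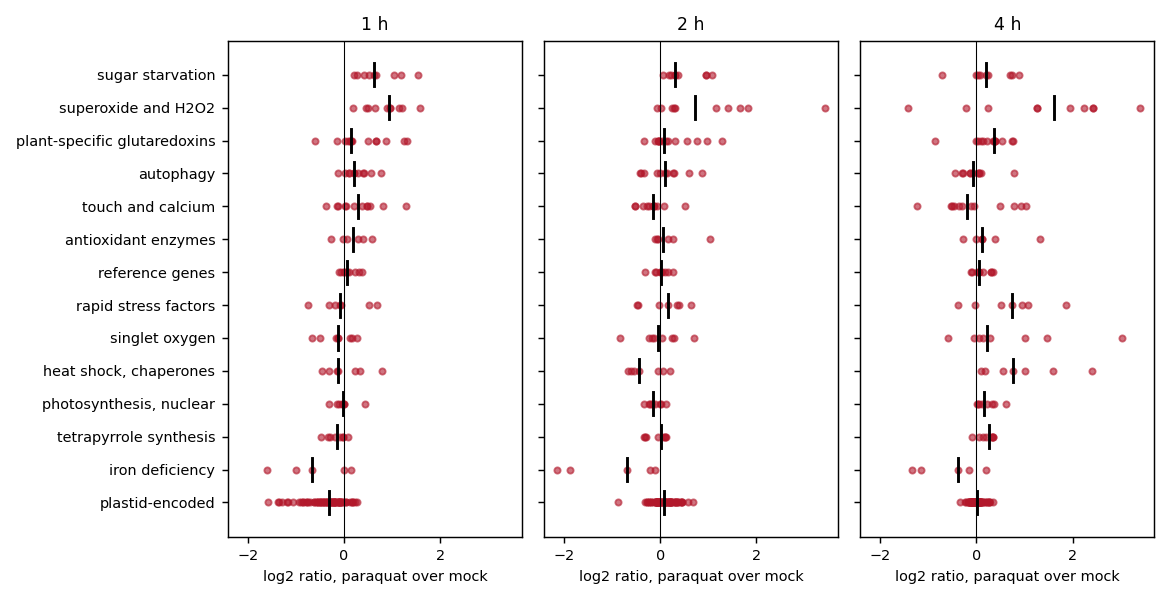
Log2 ratios of paraquat over mock at 1, 2 and 4 h, from left to right, for the members of 14 gene groups that lay above the floor at 1 h, 1 red point per gene, with a black bar at each median. The superoxide and H2O2 group has a median of 0.93 at 1 h and sugar starvation 0.62, while iron deficiency stands at -0.67 and the plastid-encoded genes at -0.32.

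AT2G25450 had the highest 1 h ratio of a named gene. It encodes the GSL-OH dioxygenase, which hydroxylates the side chain of aliphatic glucosinolates, the sulfur-rich defence compounds of the cabbage family. Its signal was 179.8, 96.2 and 93.0 with paraquat, against 33.3, 53.7 and 30.7 in mock leaves, with no overlap and ratios of 1.67, 0.57 and 0.97. The other 4 measured glucosinolate genes lay between -0.24 and -0.14 at 1 h, BCAT4, which starts the chain elongation of methionine, being the lowest. AT1G23390, the Kelch-domain F-box gene whose product marks chalcone synthase for breakdown, had 1623, 1179 and 1729 with paraquat, against 722, 841 and 1106 in mock leaves, again with no overlap (ratios 1.13, 0.47 and 0.63). The acireductone dioxygenase gene ARD4 of the methionine salvage cycle had 3118, 2578 and 4903 with paraquat and 1491, 1483 and 4902 in mock leaves, so its 1 h difference of 1.05 had become 0.00 by 4 h.

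Calcium-binding and touch-responsive genes had mixed ratios at each hour. Of 12 such genes above the floor, 9, 2 and 4 had a ratio above 0 at 1, 2 and 4 h. Among all probe sets above the floor 48.9%, 50.1% and 47.3% did, and the difference between hours was not tested. At 1 h 1 gene reached 2-fold, and the median was 0.30, -0.15 and -0.20 at 1, 2 and 4 h. CML23, a calmodulin-like gene, had 96.6, 59.9 and 138 with paraquat, against 19.8, 63.9 and 87.6 in mock leaves. Its ratio of 1.28 at 1 h rested on a mock 1 h signal below both later mock signals, and it was -0.06 at 2 h. CML38, CML41 and CML37 stood at 0.80, 0.55 and 0.49 at 1 h. At 4 h CML38 stood at -0.47 and CML41 at -1.23, while CML37 stood at 1.02, CML42 at 0.94 and AT4G27280 at 0.78. Among the U-box ubiquitin ligase genes, PUB26 had 299.5, 132 and 120.3 with paraquat, against 127, 95.8 and 103 in mock leaves (ratios 1.05, 0.36 and 0.17), and PUB24 stood at 0.67, with a family median of 0.32 over 6 genes.

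Other higher genes differed at 1 h but for the most part no longer at 4 h. MED30 is the Mediator subunit encoded by AT5G63480, which had 203, 155 and 156 with paraquat, against 68.9, 23.7 and 195 in mock leaves, and ratios of 1.20, 1.71 and -0.27. AT2G41250, a HAD-superfamily hydrolase gene, had 928, 877 and 1429 with paraquat, against 408, 564 and 1510.5 in mock leaves, and AT3G15760 had 455, 610.1 and 674, against 196, 339.8 and 650.3. Both differences had closed by 4 h, with ratios of -0.08 and 0.05, and the mock level of both was highest at 4 h. AT1G18810, of the phytochrome kinase substrate family, stood at 1.09, 0.13 and -0.08. AT3G15630 had 1835, 1169 and 575 with paraquat, against 892, 843 and 383 in mock leaves (ratios 1.01, 0.46 and 0.54), and AT1G71970 stood at 1.06, 0.36 and 0.08. AT5G20790 had ratios of 1.24, 0.75 and 0.29 on signals of 250.0 with paraquat and 85.97 in mock leaves at 1 h. The remaining named ones were AT1G44890 (1.25, 0.87 and -0.25), AT1G03660 (1.21, 0.04 and 0.27) and AT3G28270 (1.01, 0.30 and -0.22).

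A few higher genes turned round at a later hour by at least 2-fold. AT2G37870, a lipid transfer protein family gene, had 460.4, 174 and 109 with paraquat, against 187, 152 and 383 in mock leaves, and ratios of 1.16, 0.16 and -1.54. AT5G39520 had 379.5, 92.5 and 207 with paraquat, against 152, 58.9 and 557 in mock leaves, and ratios of 1.15, 0.44 and -1.29. Both reversals rest partly on a mock level that was highest at 4 h. AT3G15570, an NPH3 family gene related to phototropism, had 115, 40.8 and 189 with paraquat, against 22.4, 125 and 157 in mock leaves. Its mock 1 h signal of 22.4 was well below the floor, and the ratio of 1.40 at 1 h was followed by -1.09 at 2 h and 0.22 at 4 h.

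**Figure D4:**
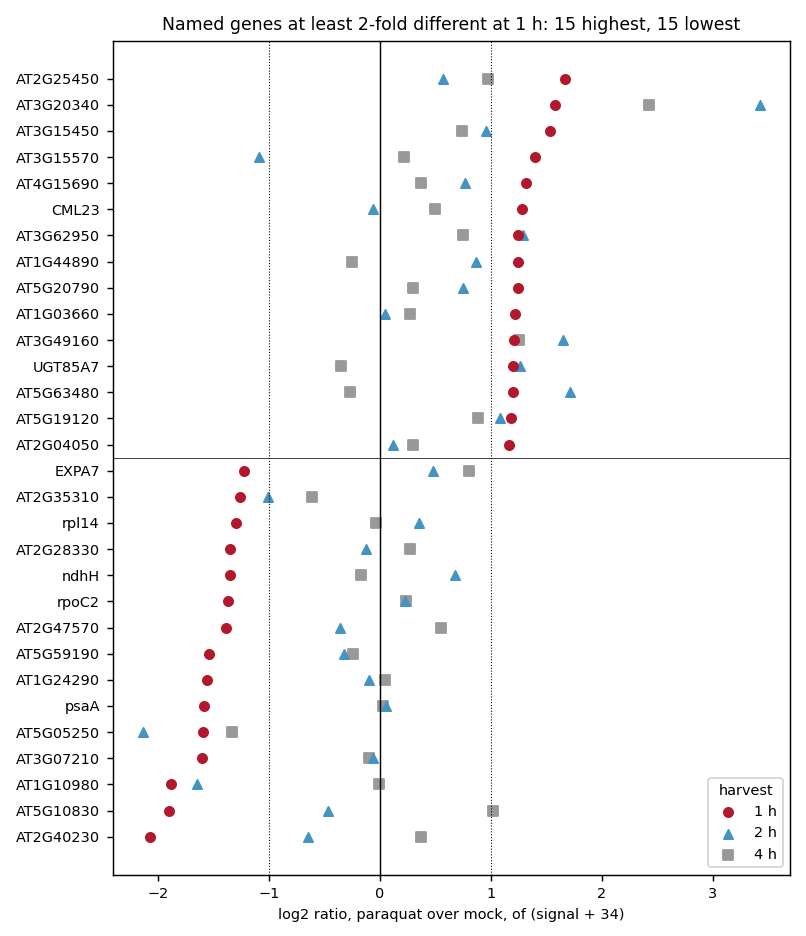
Log2 ratios of paraquat over mock (x axis) for the 15 highest and 15 lowest named genes among the probe sets at least 2-fold different at 1 h, with red circles for 1 h, blue triangles for 2 h and grey squares for 4 h. Dotted lines mark 2-fold, and AT3G20340, AT3G49160 and AT5G05250 stay past them in the same direction at all 3 hours.

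The place of each 1 h array among all 6 was then counted. Of the 65 higher probe sets, 24 had their highest signal of all 6 arrays on the paraquat 1 h array (13.6% of all probe sets above the floor did) and 36 had their lowest on the mock 1 h array (19.0%). Only the mock array lay outside the range of the 4 later arrays for 30, only the paraquat array for 17, both on opposite sides for 6, both on the same side for 1 and neither for 11. Mock leaves had a higher signal at 4 h than at 1 h for 51 of the 65 (49.7% of all). Of the 46 lower probe sets, 33 had the lowest signal of 6 on the paraquat 1 h array (15.4% of all) and 38 the highest on the mock 1 h array (19.9%), with both arrays outside the later range on opposite sides for 26 and on the same side for 3. All 3 paraquat arrays exceeded all 3 mock arrays for 15 of the higher probe sets (3.32% of all above the floor) and lay below them for 9 of the lower (4.12%). The 1 h pair that chose the members is part of these counts, so nothing is read from them.

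Most lower probe sets fell into 2 kinds, dim ones and bright plastid-encoded ones. Of the 46, 29 had a signal below 200 on the brighter array and 13 above 1000. Among probe sets of 86 to 200, 0.51% were at least 2-fold higher and 0.86% lower, whereas between 200 and 500 the shares were 0.47% and 0.070%, and between 500 and 1000 they were 0.60% and 0.035%. Above 1000, 9 of 59 plastid-encoded probe sets were at least 2-fold lower (15.3%), against 4 of 3704 others (0.108%). Of the higher probe sets, 17 lay below 200 and 11 above 1000.

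Plastid-encoded transcripts were lower on the paraquat 1 h array across functions. psaA, a reaction centre protein of photosystem I, the complex from which paraquat takes electrons, had signals of 2676, 7706 and 7502 with paraquat, against 8107, 7435 and 7367 in mock leaves at 1, 2 and 4 h. The paraquat 1 h value lay far below the other 5, and the ratio was -1.59, 0.05 and 0.03. rpoC2, a subunit of the plastid RNA polymerase, had 1070.5, 2324 and 2144 with paraquat, against 2818, 1977 and 1823 in mock leaves (ratio -1.37 at 1 h, 0.23 at both later hours). ndhH, of the NDH complex of cyclic electron flow, had 394, 1085 and 845 with paraquat, against 1055, 666 and 957 in mock leaves (ratios -1.35, 0.68 and -0.17). atpH, the ring subunit of the ATP synthase, had 3944, 7791 and 6712 with paraquat, against 8875, 7522 and 6524 in mock leaves (ratios -1.16, 0.05 and 0.04).

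Ribosomal protein genes of the plastid made up the rest. rpl14 had 1103 with paraquat and 2760.5 in mock leaves at 1 h (ratio -1.30), rpl16 had 2502 and 5690 (-1.17), and rps2 had 2685 and 5659 (-1.07). The probe sets 244939_at and 244940_at are annotated to both copies of rps12, and 244939_at had 395, 1397 and 1311 with paraquat, against 1813, 1206 and 1372 in mock leaves. Its ratio of -2.11 was the lowest of all probe sets at 1 h and was followed by 0.21 and -0.06, and 244940_at stood at -1.48, 0.11 and -0.03. On each of these 9 probe sets the paraquat 1 h array was the lowest of 6, and on 8 of them the mock 1 h array was the highest. The 1 h pair that chose them is part of these places, so nothing is read from them. The mock 1 h excess was small for psaA (8107, against 7367 to 7706 on the 4 later arrays). It was larger for rpoC2 (2818, against 1823 to 2324). None of the 9 probe sets was 2-fold different at 2 h or 4 h.

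Among all 69 plastid genes with a probe set of their own, the number with a ratio below 0 was 61, 27 and 34 at 1, 2 and 4 h. At 1 h 50.9% of all other probe sets above the floor were below 0. At 2 h and 4 h 49.9% and 52.7% of all probe sets above the floor were. The median of the 69 was -0.32, 0.08 and 0.01, and the SD of their ratios was 0.41, 0.24 and 0.13. The paraquat 1 h array was the lowest of 6 for 47 of the 69 (15.1% of all other probe sets, and 13.3% of the 3704 others above 1000) and the highest for 4, and the mock 1 h array was the highest of 6, with a ratio below 0, for 27 (19.9% of all probe sets above the floor). By function, the 1 h median was lowest for the 4 RNA polymerase subunits (-0.63), and stood at -0.39 for 10 subunits of NDH, -0.30 for 15 proteins of the ribosome, -0.27 for 20 of the photosystems and -0.19 for 12 of cytochrome b6f and the ATP synthase. With both arrays above the floor, which leaves out the dim rpoB and ndhF, the polymerase median was -0.37 and that of NDH -0.35. The highest were petG at 0.26, matK at 0.23 and rpoA at 0.18. Over 8 genes of the mitochondrial genome above the floor the median was 0.07. The 25S ribosomal RNA and 5′ actin controls were also high on the paraquat 1 h array. At 4 h the 25S control was again higher with paraquat, at 243 against 92.8 in mock leaves. The 5′ actin control was not, at 570 against 572 in mock leaves. The plastid median at 4 h was 0.01. The 5S ribosomal RNA control was high on the mock 1 h array, with 127 against 58.9 with paraquat. Whether the low plastid ratios belong to the leaves, to the paraquat 1 h array or to the mock 1 h array was not tested.

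Neighbours on the plastid genome, ordered by the TAIR10.1 gene table, had unequal ratios at 1 h. Next to psaA at -1.59, psaB stood at -0.29 and rps14 at -0.43, though the 3 genes are transcribed as 1 unit. Along the ATP synthase and polymerase stretch, atpA stood at -0.20, atpF at -0.71, atpH at -1.16, atpI at -0.85, rps2 at -1.07, rpoC2 at -1.37, rpoC1 at -0.37 and rpoB at -0.89. In the psbB group the ratio was -0.76 for psbB, -0.86 for psbT, -0.93 for psbN, -0.54 for psbH, -0.18 for petB and -0.47 for petD. rpl14 and rpl16 lay beside rps3 at -0.30 and rpl36 at -0.38. Some of these neighbours were dim, with 61.7 for rpoB with paraquat against 144 in mock leaves and 67.5 for rps14 against 103.

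**Figure D5:**
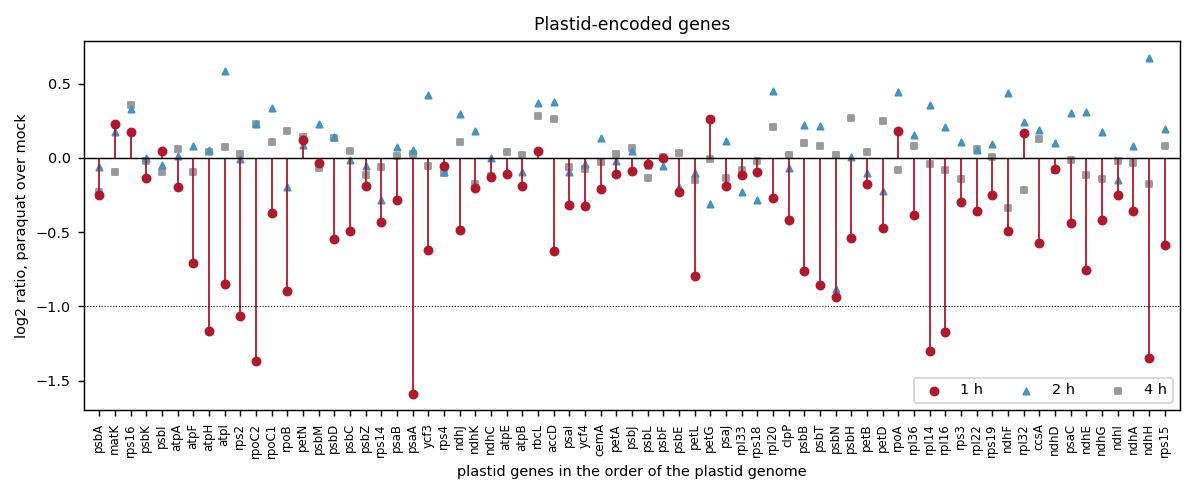
Log2 ratio of paraquat over mock (y axis) for the 69 plastid genes with a probe set of their own, in the order of the plastid genome along the x axis, with red circles and stems for 1 h, blue triangles for 2 h and grey squares for 4 h. At 1 h 61 lie below 0, where 50.9% of all other probe sets above the floor did. The 1 h median is -0.32 and the deepest stem is psaA at -1.59, while the 4 h points stay between -0.34 and 0.35.

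Of 5 iron-deficiency genes above the floor, 3 had a ratio below 0 at 1 h and 2 above 0. Among all probe sets above the floor 48.9% were above 0, so this count lay close to that share. AT5G05250 and AT1G47400 were lower at all 3 hours. AT5G05250, known to respond to iron supply, had signals of 86.7, 74.3 and 77.4 with paraquat, against 329.6, 441 and 247 in mock leaves. No paraquat value reached a mock value, and the ratio was -1.59, -2.13 and -1.34 at 1, 2 and 4 h. The limma mean over 2 h and 4 h was -1.73 ± 0.22 and missed the threshold (adjusted p = 0.061). AT1G47400, which encodes a small peptide of the IRON MAN family, had 995, 512 and 452 with paraquat, against 2015, 1969 and 1047 in mock leaves, and stood just short of 2-fold at 1 h with -0.99. PYE, the transcription factor POPEYE of the root iron response, had 177 with paraquat and 301 in mock leaves (ratio -0.67, then -0.68 and 0.20). AT1G18910 stood at 0.15 and AT3G07720 at 0.00. Over the 5 listed genes above the floor the median was -0.67, -0.68 and -0.37 at 1, 2 and 4 h, and this list was written with its leading members in view.

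Apart from these, 2 bright probe sets kept a lower level at all 3 hours. AT3G56360 had 2133, 1318 and 1953 with paraquat, against 4776, 3833 and 3537 in mock leaves, and ratios of -1.15, -1.52 and -0.85. The groups did not overlap, and the limma mean over 2 h and 4 h was -1.18 ± 0.16 (adjusted p = 0.061). The unnamed 248270_at had 511, 458 and 504 with paraquat, against 1244, 1123 and 1021 in mock leaves (ratios -1.23, -1.23 and -0.97), likewise with no overlap. AT2G35880, of the TPX2 family of microtubule-binding proteins, had 368, 273 and 211 with paraquat and 810.3, 265 and 156 in mock leaves, so that its ratio of -1.07 at 1 h was 0.04 and 0.37 later. AT5G59000, a RING-type zinc finger gene, had 173, 237 and 171 with paraquat, against 409, 385 and 161 in mock leaves (ratios -1.10, -0.63 and 0.07).

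The dim lower probe sets carried the larger part of the named genes. Of the 37 not plastid-encoded, 29 had a signal below 200 on the brighter array and 25 a paraquat signal below 50. A ratio below 0 was found for 25 of the 37 at 2 h and for 16 at 4 h. Among all probe sets above the floor, 49.9% and 52.7% were below 0 at these hours, so the 4 h count lay under that share. AT2G40230, an acyltransferase gene, had 13.1, 194 and 206 with paraquat, against 164, 324 and 152 in mock leaves (ratios -2.07, -0.65 and 0.37). AT5G10830, a methyltransferase gene, had 16.1, 69.4 and 196 with paraquat, against 153, 109 and 79.7 in mock leaves, and its ratio of -1.90 at 1 h was 1.02 at 4 h. AT1G10980 had 10.4, 7.81 and 7.43 with paraquat, against 130.1, 97.4 and 7.67 in mock leaves, so both sprays were far below the floor by 4 h. The signals of AT2G35310, a B3-domain transcription factor gene, were 24.3, 24.1 and 8.23 with paraquat, against 105, 83.1 and 30.7 in mock leaves (ratios -1.26, -1.01 and -0.61), the paraquat values all below the mock values.

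Other dim genes of this kind spanned unrelated functions. They include the subtilase gene AT5G59190 (10.998 with paraquat and 97.2 in mock leaves at 1 h, ratio -1.54), the ribosomal protein gene AT2G47570 (-1.39), the peroxidase gene AT4G08780 (-1.19), the cytochrome P450 gene AT1G66540 (-1.12) and the pentatricopeptide repeat gene AT5G57250 (-1.11). AT5G57250, the nucleoporin gene AT1G59660 (-1.10) and RAD9 of the DNA damage checkpoint (-1.05) kept all paraquat values below all mock values. For AT3G07210, at -1.60, this held as well, with ratios of only -0.06 and -0.10 later. The 1 h pair that chose these genes is part of that separation. All later signals of RAD9 and AT3G07210 were below the floor. EXPA7, an expansin of root hairs, had 21.5, 67.8 and 37.4 with paraquat and 95.9, 39.0 and 6.86 in mock leaves, and the other root markers measured, PYK10 and AT3G54580, were below the floor on both 1 h arrays. The remaining named ones were AT1G24290 (-1.55), AT2G28330 (-1.35), AT2G14640 (-1.15), AT1G11560 (-1.14), the GRAS family gene AT5G41920 (-1.10), AT3G45700 (-1.09), AT1G35220 (-1.08), the Kelch F-box gene AT5G26960 (-1.02) and AT3G42140 (-1.01).

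Several pathways had no member at 2-fold at 1 h. Of all probe sets above the floor 0.457% were at least 2-fold higher and 0.324% lower. Lists this short would mostly hold none at those shares, so nothing is read from it. Of 11 autophagy genes, 10, 7 and 5 had a ratio above 0 at 1, 2 and 4 h, where 48.9%, 50.1% and 47.3% of all probe sets did. Their median was 0.21 at 1 h. ATG8E, a ubiquitin-like protein of the autophagosome, stood at 0.76 on signals of 1363 with paraquat and 789 in mock leaves. ATG8E stayed at 0.87 and 0.79 later (limma adjusted p = 0.083). The median of 7 rapidly induced transcription factors was -0.08, with WRKY6 at 0.69, STZ at 0.53 and AT1G22810 at -0.74. Genes known to answer singlet oxygen in flu had a median of -0.13 over 8, heat shock and chaperone genes -0.12 over 7, tetrapyrrole synthesis -0.14 over 8, nuclear photosynthesis genes -0.03 over 8, starch and sugar metabolism -0.30 over 4 and mitochondrial stress genes 0.17 over 5. Reference genes of steady level had a median of 0.07 over 9, between -0.11 and 0.37. The mesophyll marker RCA had 14414 with paraquat and 16016 in mock leaves (-0.15), and the guard cell markers AT1G22690 and FMA stood at -0.04 and -0.32.

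Near the 2-fold limit, 249769_at was just inside the higher group with 1.004 (785.6 with paraquat, 374.5 in mock leaves) and AT2G24550 just outside with 0.988 (917 and 445). On the lower side 260237_at was just inside with -1.001 (135 and 305) and FIO1 just outside with -0.995 (44.0 and 121). A 3-fold limit was passed by 5 higher and 9 lower probe sets. Of the 65 higher probe sets 37 had no gene name in the annotation used, as had 11 of the 46 lower ones, and 22 and 29 had a dimmer array below the floor. Functions are thus described for the named part, 28 genes higher and 33 lower.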

How the data were processed

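Signal intensities on a linear scale were taken as deposited by the authors, 1 value per probe set and array, made with MAS5 per the submitters' processing notes, whose version is not given in the sources used here. Trimmed by 2%, the mean signal came to 500.04 on every array, so that a common scaling had been applied and differences in total RNA are lost. Groups came from the sample titles. The 64 control probe sets were left out. The constant of 34 and the floor of 86 are low quantiles of all signals, and a ratio is log2(signal + 34) with paraquat minus that with mock. The number of arrays, 1 per group, limits the precision.

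The later hours were compared by limma (version 3.58.1, R 4.3.3) through lmFit and a trended eBayes (hour as block, two-sided, Benjamini-Hochberg, threshold 0.05) on 13898 probe sets above 86 on at least 2 of the 4 arrays, with 1 residual and 6.21 prior degrees of freedom, so the 2 hours stand in for replicates and a change between them counts as error. The fit was tested on simulated data. Tables and figures were made with Python 3.11.15, pandas 2.3.3, numpy 2.4.6 and matplotlib 3.10.9.

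In the given annotation 13513 probe sets name 1 gene, 503 several and 8730 none, and the TAIR10.1 gene table holds 13436 of the 13513. The text names the 15 highest and lowest ratios, listed genes at 2-fold with up to 4 more per list, members 2-fold again later or called later, plastid extremes, and the members' remaining single genes, which were added after their values were seen, as were the neighbours in the plastid stretches. For a listed gene the brightest of several probe sets was used. Members and lists were chosen with earlier results of these data known, and 1 alternative floor and 1 count without plastid genes were added after seeing the data. No sequence or coordinate is given.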

Additional observations from a re-analysis of the deposited data

Results flagged for a closer look

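For 4 named genes the ratio at a later hour was at least 2-fold in the direction opposite to 1 h, and with 1 array a group these differences were not tested. The log2 ratio of AT3G15570 was -1.09 at 2 h, after 1.40 at 1 h. AT2G37870 stood at -1.54 and AT5G39520 at -1.29 at 4 h, after 1.16 and 1.15 at 1 h. AT5G10830 stood at 1.02 at 4 h, after -1.90 at 1 h. On the paraquat 1 h array 2 control probe sets outside the comparison exceeded the mock arrays. The 25S ribosomal RNA set had a signal of 307.7, against 92.8 to 131 in mock leaves, and it had 243 on the paraquat 4 h array. The 5′ actin set had 1329, against 527 to 572 in mock leaves.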

How the results depend on the processing

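The count of probe sets at least 2-fold higher at 1 h, 65 as reported, was 112 with a constant 4 times smaller, 16 with one 4 times larger, 134 without the floor, 43 with both arrays above the floor, 5 at 3-fold and 157 against the mean of the 3 mock arrays. The lower count, 46, was 100, 13, 148, 17 and 9 under the first 5 of these, and 20 with the floor doubled. The median of the plastid RNA polymerase genes was -0.37 with both arrays above the floor. The limma calls over 2 h and 4 h, 5 higher and 2 lower, became 54 and 17 after quantile normalization, and 11 of the members were then called in place of 2. They were 0 and 0, with 0 members, without the variance trend (1236 probe sets at an unadjusted p under 0.05), without the filter (1691) and without the hour block (381). With the larger constant 25 of 38 named genes at 2-fold no longer reached it. None of these 38 changed sign under any constant or scaling tried, while 3 of 206 named genes did after quantile normalization and 1 after centring on the 75th percentile. The causes were not tested. Of the 46 lower probe sets 29 had 1 array below the floor, and with 1 array a side no 1 h value has a replicate error.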
